A study of Mus musculus with 31 samples.

Results

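BXD strains, labelled BxD/TyJ strain 1 and so on in the series, are recombinant inbred mouse lines descended from a cross of C57BL/6J with DBA/2J. The strains compared here were those with high and those with low RNA levels of 3 enzymes of cholesterol synthesis, Sqle, Fdps and Msmo1. Of 31 strains, 4 (23, 28, 40 and 42) were left out, and the other 27 were ordered by a score. The score was the mean of the log2 ratios of the 3 genes, each centred on its median over strains. The 9 strains with the highest score formed the high-score group and the 9 with the lowest score the low-score group, with 9 middle strains between them. The groups were therefore selected on measured values, and they are not groups that the study set up.

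Each strain was represented by whole liver RNA pooled from 3 male mice aged 8 weeks and hybridised once, on a 2-colour glass array. The second channel of all arrays held 1 pool of liver RNA from 9 male C57BL/6J mice of the same age, and 20 ug of pooled RNA was labelled for each channel. Strain RNA carried Alexa Fluor 647 and the C57BL/6J pool Alexa Fluor 555, with no exchange of dyes. Values are read as log2 of strain over C57BL/6J, which is the likely direction and base but is stated nowhere in the sources used here. Were the ratio turned, every sign in the text would turn with it, and the strains called high-score would be those with the lower RNA levels of the 3 genes. A strain difference in the text is the mean ratio of the high-score strains minus that of the low-score strains. With 1 pooled array per strain, its error is the spread between strains, which holds genetic and technical differences alike. A ratio between 2 liver RNAs does not show how abundant a transcript is, so the tissue label could not be checked against absolute marker levels.

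Cholesterol is built from acetyl-CoA through mevalonate, the isoprenoid diphosphates, squalene and lanosterol. In liver the transcription factor SREBP-2, encoded by Srebf2, switches on nearly every gene of this pathway when sterols in the endoplasmic reticulum run low, and INSIG proteins hold it back when sterols are plentiful. Fdps makes farnesyl diphosphate, the last precursor shared with the other isoprenoids. Sqle oxidises squalene in a rate-controlling step, and Msmo1 removes methyl groups from sterols after lanosterol.

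The score ran from 0.62 in strain 27 and 0.54 in strain 16 to -0.41 in strain 29 and -0.50 in strain 20. Strain 32, at 0.10, was the last of the high-score group and strain 2, at -0.011, the first outside it. Strain 1, at -0.100, was the first of the low-score group and strain 11, at -0.090, the last outside it. The 4 strains left out had scores between -0.73 and -0.54, below those of the other 27. They would have filled 4 of the 9 low places had they been kept.

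The values of the 3 genes chose the groups and are given as a description only. Sqle ratios ran from 0.57 in strain 6 through a median of 1.19 to 1.62 in strain 27 among high-score strains, against 0.16 in strain 29, a median of 0.62 and 1.46 in strain 24 among low-score strains. Fdps ranged from 0.38 in strain 33 through 0.72 to 1.18 in strain 6 in the high-score group, and from 0.020 in strain 31 through 0.20 to 0.64 in strain 19 in the low-score group. Msmo1 ranged from 0.41 in strain 32 through 1.15 to 1.61 in strain 27 in the high-score group, and from 0.16 in strain 20 through 0.39 to 0.99 in strain 34 in the low-score group. The groups overlapped for each gene taken alone. Strain 24 shows how the mean of 3 genes sorted them: its Sqle ratio of 1.46 was the third highest of all strains, yet with Fdps at 0.15 and Msmo1 at 0.25 it fell among the low-score strains. All 18 strains had ratios above 0 for the 3 genes, low-score strains included. With the same dye order and reference pool on all arrays, a shared offset cannot be told apart from a difference to C57BL/6J.

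**Figure D1:**
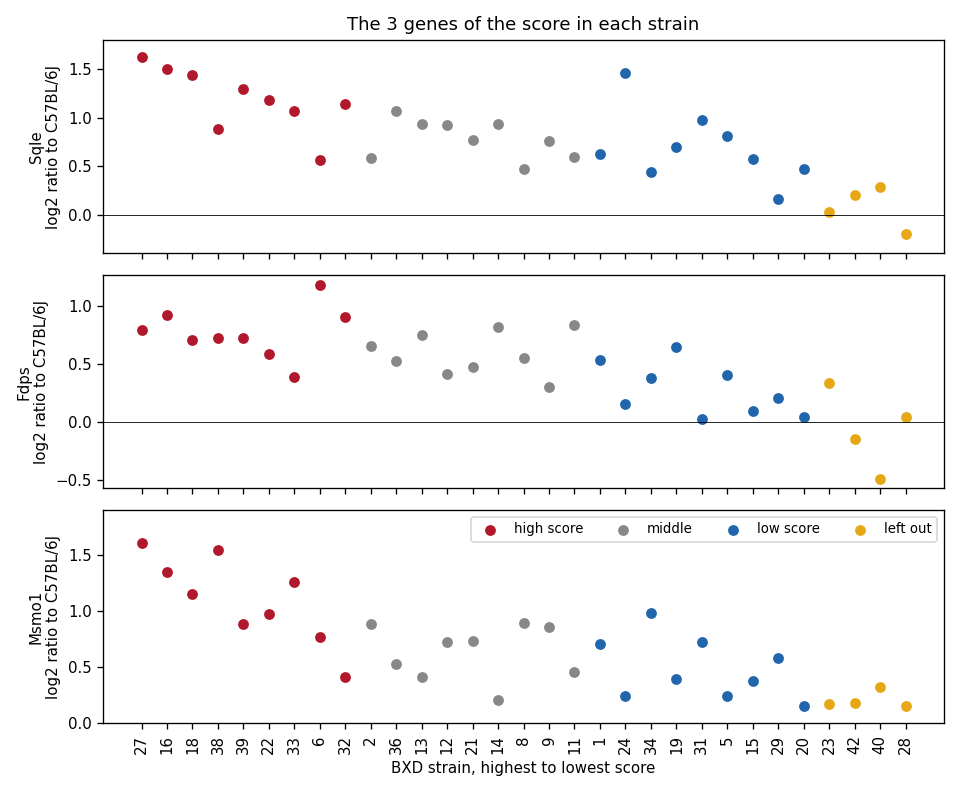
Log2 ratio to the C57BL/6J pool (y axis) of Sqle, Fdps and Msmo1 in each of the 31 strains, 1 point per strain, ordered along the x axis from the highest to the lowest score and coloured by group. The 3 genes set this order; single strains such as 6, 24 and 32 are high for 1 gene and low for another, as Sqle at 1.46 and Msmo1 at 0.25 in strain 24.

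Sqle, Fdps and Msmo1 were only loosely tied to one another. Over the 27 strains Pearson's r was 0.38 between Sqle and Msmo1, 0.30 between Fdps and Msmo1 and 0.28 between Sqle and Fdps. With the 4 left-out strains added, r was 0.54, 0.44 and 0.49 for these pairs. Each gene had 1 probe, and all pairs share the same arrays.

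How far an array stood from the rest was compared between the groups. The median r of an array with the other arrays was 0.57 to 0.79 in the high-score group and 0.68 to 0.78 in the low-score group, against 0.06 to 0.37 in the 4 left-out strains. Strain 38 was the lowest of the high-score group and strain 15 of the low-score group. Probes at every 8th place in the table, 2532 in all and Msmo1 among them, read low on the 27 arrays. Their median was -0.70 to -0.50 in high-score and -0.70 to -0.53 in low-score strains, and -0.24 to 0.010 in the left-out strains.

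The question this comparison answers is whether other liver genes differed between strains at the extremes of the score. No probe did at an adjusted p under 0.05 in limma's moderated test. Of 21762 probes other than those of the 3 genes, 0 were called (0%), and the lowest Benjamini-Hochberg adjusted p was 0.9996. An unadjusted p under 0.05 was reached by 756 probes (3.47%), 387 of them higher (1.78%) and 369 lower (1.7%) in the high-score strains. For no probe were the 2 groups free of overlap (0%). Differences above 0 made up 49.7% of all probes, with a median of -0.00061 and a 5th to 95th percentile range of -0.17 to 0.17. The median standard error of a difference was 0.092, and 70 probes differed by 0.5 or more in either direction. Using the score itself as a continuous measure over the 27 strains also called no other probe, with 807 at an unadjusted p under 0.05. Since no probe was called, no share of called probes lying between the groups in the 9 middle strains can be given.

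The other enzymes of the pathway, which the label of a sterol synthesis difference would lead one to examine first, did not pass either. The 14 such genes analysed here had 1 probe each, and 0 of 14 were called. The difference was above 0 for 11 of the 14, with a median of 0.088, and 1 had an unadjusted p under 0.05, against 49.7% and 3.47% of all probes. With the score as a continuous measure over the 27 strains, 12 of the 14 rose with it. There, 4 (28.6%) had an unadjusted limma p under 0.05, against 3.71% of all probes, and 0 were called. The data thus bear out a difference in Sqle, Fdps and Msmo1, by construction, and do not establish one for the pathway, so the groups are named here by their score. In whole liver RNA, a lower ratio can mean less RNA per cell or fewer of the cells that make it, which these data cannot tell apart.

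Among the early steps, Idi1, which interconverts the C-5 isoprenoid diphosphates, had the largest positive difference. Its ratios ran from -0.39 in strain 39 through a median of 0.13 to 0.33 in strain 38 in the high-score group and from -0.58 in strain 29 through -0.19 to 0.18 in strain 20 in the low-score group. Of the 9 high-score strains, 8 lay above the low-score median, but the ranges overlapped over most of their width. The difference was 0.20 ± 0.11 (SE, n = 9 strains each, limma adjusted p = 0.9996, 95% interval -0.016 to 0.42). Pmvk, a mevalonate pathway kinase, gave 0.13 ± 0.13 in high-score and -0.0055 ± 0.15 in low-score strains (SD), with 8 of 9 high-score strains above the low-score median. The difference for Mvd, the decarboxylase of the mevalonate pathway, was 0.075, and that for Mvk, mevalonate kinase, 0.058. Mvk was 0.63 in strain 38, and its difference was -0.0059 without that strain and 0.024 without strain 15.

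For the committed and later steps the picture was mixed. Dhcr7, the enzyme that reduces 7-dehydrocholesterol to cholesterol, ran from 0.14 in strain 32 through 0.25 to 0.58 in strain 39 in the high-score group and from 0.015 in strain 15 through 0.16 to 0.32 in strain 34 in the low-score group. It was the single pathway probe at an unadjusted p under 0.05, with a difference of 0.17 ± 0.073 (SE, limma unadjusted p = 0.033, adjusted p = 0.9996). Without strain 38 that difference was 0.15 and its unadjusted p 0.063. Hsd17b7, a keto-sterol reductase, ran from 0.100 through 0.46 to 0.95 in high-score strains and from 0.085 through 0.24 to 1.51 in low-score strains. The value of 1.51 belonged to strain 31 alone, and the next highest low-score strain was at 0.35. Its mean difference was 0.20, with an interval of -0.13 to 0.52.

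Fdft1, squalene synthase, varied widely within the low-score group, from -0.86 in strain 20 to 0.78 in strain 31, against -0.22 to 0.49 in the high-score group. Its difference of 0.13 had an interval of -0.24 to 0.50, and was 0.082 without strain 15. Cyp51, the lanosterol demethylase, differed by 0.14, and by 0.059 without strain 15, which held its lowest value of -0.23. Ebp, the sterol isomerase, differed by 0.10 and Tm7sf2, a sterol reductase, by 0.033, or by 0.0028 without strain 15. Lss, lanosterol synthase, had the smallest difference of the 14, with means of 0.47 ± 0.079 in high-score and 0.46 ± 0.15 in low-score strains (SD, n = 9 each). Its difference was 0.0056, or 0.024 without strain 38, and the interval of -0.13 to 0.14 holds both small increases and small decreases.

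Sc5d, Nsdhl and Lbr had differences below 0. Sc5d, the lathosterol desaturase that acts just before Dhcr7, ran from -1.19 in strain 32 through -0.26 to 0.49 in strain 6 in the high-score group. In the low-score group it ran from -1.16 in strain 15 through 0.15 to 0.42 in strain 29, and 2 of 9 high-score strains exceeded the low-score median. The difference was -0.36 ± 0.22 (SE, limma unadjusted p = 0.12) and -0.51 without strain 15 (unadjusted p = 0.011), with no call in either case. Nsdhl, which works with Msmo1 in removing the methyl groups at carbon 4, differed by -0.089, and by -0.055 without strain 38. Lbr, a sterol reductase of the nuclear envelope, differed by -0.070, by -0.14 without strain 38 and by -0.023 without strain 15.

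**Figure D2:**
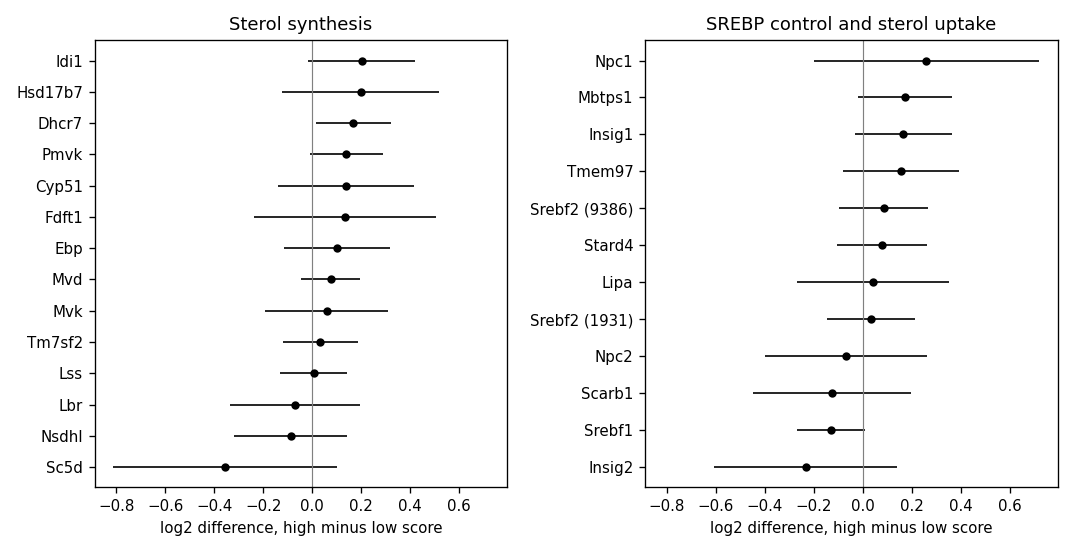
Difference in mean log2 ratio, high-score minus low-score strains (x axis, points, with 95% intervals as bars), for the 14 sterol synthesis probes and the 12 probes of SREBP control and sterol uptake, 9 strains in each group; a number in brackets tells apart the probes of a gene. The sterol synthesis points lie between -0.36 for Sc5d and 0.20 for Idi1, and of these 14 intervals the one of Dhcr7 lies wholly above 0.

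The mean of the 14 probes in a strain, each centred on its median, overlapped widely between the groups. It was -0.13 in strain 22, 0.034 at the median and 0.15 in strain 38 in the high-score group, and -0.21 in strain 15, 0.022 at the median and 0.13 in strain 31 in the low-score group. Strain 16, with the second highest score, was at -0.024. The 3 strains with the lowest scores of the 27, strains 20, 29 and 15, were at -0.17, -0.077 and -0.21. Of the 4 left-out strains, 23, 40 and 42 were lower still, at -0.27, -0.38 and -0.46, whereas strain 28, with the lowest score of the 31, was at 0.12. Each high-score value except those of strains 16 and 22 was above 0, and so were 5 of the 9 low-score values. A single-probe view over the 27 strains gave Pearson's r with the score of 0.53 for Dhcr7, 0.48 for Pmvk and Idi1, 0.43 for Fdft1 and -0.18 for Sc5d. The median r between pairs of the 14 probes was 0.069, ranging from -0.46 to 0.56 over the same arrays.

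**Figure D3:**
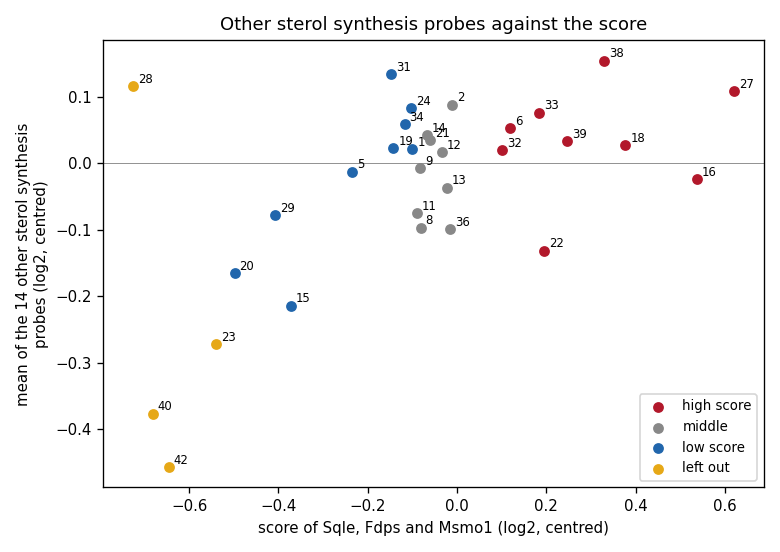
Mean centred log2 ratio of the 14 sterol synthesis probes other than Sqle, Fdps and Msmo1 (y axis) against the score (x axis), 1 point per strain, labelled with the strain number and coloured by group. The high-score strains lie between -0.13 and 0.15 and the low-score strains between -0.21 and 0.13, and 3 of the 4 left-out strains lie lower, down to -0.46.

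Promoter sequences of genes of this pathway were searched for the letters of binding motifs. Windows of 250 bases before to 50 after the start were matched for 14 of the 17 genes (RefSeq, GRCm38.p6), 17 windows in all. No window was available for Sqle, Fdps and Fdft1, so these genes were not searched. The windows of Msmo1, which served in the score, and of Idi1 and Hsd17b7, the members with the largest positive differences, are printed 5′ to 3′, with the NF-Y box CCAAT or its reverse complement ATTGG in capitals. NF-Y is a partner of SREBP at sterol-controlled promoters. They lie at chr8:64733529-64733828 on the minus strand, chr13:8885356-8885655 on the plus strand and chr1:169969156-169969455 on the minus strand.
Msmo1: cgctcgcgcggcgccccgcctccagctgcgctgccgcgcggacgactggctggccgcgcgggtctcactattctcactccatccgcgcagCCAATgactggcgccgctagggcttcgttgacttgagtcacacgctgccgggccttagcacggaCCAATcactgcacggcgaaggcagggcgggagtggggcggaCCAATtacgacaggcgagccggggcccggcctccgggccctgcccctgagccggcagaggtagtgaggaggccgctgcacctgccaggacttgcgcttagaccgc
Idi1: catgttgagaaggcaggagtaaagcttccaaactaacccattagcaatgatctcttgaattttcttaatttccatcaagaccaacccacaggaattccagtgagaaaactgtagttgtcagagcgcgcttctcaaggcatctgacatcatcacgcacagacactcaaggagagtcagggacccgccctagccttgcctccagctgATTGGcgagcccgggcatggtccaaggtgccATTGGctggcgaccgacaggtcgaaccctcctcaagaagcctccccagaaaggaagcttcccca
Hsd17b7: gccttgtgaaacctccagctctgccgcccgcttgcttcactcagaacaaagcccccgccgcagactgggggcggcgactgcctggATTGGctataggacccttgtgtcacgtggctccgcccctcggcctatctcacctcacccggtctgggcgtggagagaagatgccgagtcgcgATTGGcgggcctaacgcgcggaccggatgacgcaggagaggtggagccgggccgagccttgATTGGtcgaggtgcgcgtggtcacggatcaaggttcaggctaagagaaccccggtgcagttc
The box was in 14 of the 17 windows, against 37.4% of 32851 windows of all genes. The GC box GGGCGG or its reverse complement CCGCCC, which can overlap other motifs, was in 14 of 17, against 35.7%. A strict sterol regulatory element core, TCACNCCAC on either strand, was in 0 of 17 and in 1.24% of all windows. Windows of a gene can overlap, and a match of letters is no binding site.

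The genes that control SREBP and take up or move sterols also yielded no call. The 11 such genes analysed here had 12 probes in all, of which 8 were above 0 with a median of 0.061, and 0 were called or at an unadjusted p under 0.05 in limma. The 2 probes of Srebf2 itself differed by 0.033 and 0.085, each with an interval spanning 0. The smaller was -0.0072 without strain 38 and 0.0029 without strain 15, and the larger 0.056 without strain 38. Insig1, a brake on SREBP processing that is also an SREBP target, ran from -0.15 in strain 18 through 0.35 to 0.59 in strain 38 in high-score strains and from -0.12 in strain 15 through 0.10 to 0.46 in strain 24 in low-score strains. Its difference was 0.17, with 8 of 9 high-score strains above the low-score median and an interval of -0.032 to 0.36. Mbtps1, the site-1 protease that cuts SREBP, differed by 0.17, and by 0.22 without strain 15.

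Npc1, which exports cholesterol from lysosomes, had the largest difference of these 12, at 0.26, on ranges of 0.0051 to 1.67 in high-score and -0.055 to 1.17 in low-score strains. Its partner Npc2 differed by -0.069, by -0.16 without strain 38 and by 0.0032 without strain 15. Tmem97, a regulator of NPC1, differed by 0.16 and Stard4, a sterol carrier, by 0.079. Lipa, the lysosomal cholesteryl ester hydrolase, differed by 0.042, by 0.10 without strain 38 and by -0.046 without strain 15. Scarb1, the HDL receptor, differed by -0.13, or by -0.20 without strain 15, and Insig2, the second INSIG protein, by -0.23. Srebf1, whose main liver product drives fatty acid synthesis, differed by -0.13, with 1 of 9 high-score strains above the low-score median and an interval of -0.27 to 0.011.

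None of the other gene lists held a called probe. The lists of other isoprenoid synthesis (12 probes, 9 above 0, median 0.042) and of sterol export, esterification and LXR targets (13 probes, 8 above 0, median 0.0084) stayed near 0. Among the export genes Sult2b1, a sterol sulphotransferase, differed by 0.28 with strain 38 at 1.94, and by 0.081 without strain 38. Nr1h3, encoding the oxysterol receptor LXR-alpha, differed by 0.28. Bile acid synthesis and transport had 16 of 26 probes above 0 and a median of 0.015. There, the bile acid and drug importer Slco1b2 differed by -0.58, from -0.015 to 0.96 in high-score and from 0.046 to 2.82 in low-score strains, and the nuclear receptor gene Nr5a2 by -0.50 (limma unadjusted p = 0.034).

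Lipogenesis had 15 of 34 probes above 0 and a median of -0.0069, with 0 at an unadjusted p under 0.05. Fatty acid oxidation with PPAR-alpha targets had 14 of 29 above 0 and a median of -0.0047. At an unadjusted p under 0.05, 0 were higher and 2 lower, Cd36 (-0.27) and Decr1 (-0.17, named after its value was seen). The shares over all probes were 1.78% and 1.7%. Scd1, the stearoyl-CoA desaturase, spread far more within the groups than between them, from -3.49 to -0.94 in high-score and from -3.84 to -0.18 in low-score strains, a difference of -0.32 ± 0.46 (SE), or of -0.48 without strain 15. Fasn, fatty acid synthase, differed by -0.22 with an interval of -0.77 to 0.34, and by -0.12 without strain 15. Fabp1, the liver fatty acid carrier, differed by -0.29. Apolipoproteins and lipoprotein handling had 7 of 17 probes above 0 (median -0.029), with Apob at 0.27, or 0.12 without strain 15, and Apoc3 at -0.25. In glucose control 7 of 18 were above 0 (median -0.027), and G6pc, the catalytic glucose-6-phosphatase, differed by -0.46, or by -0.29 without strain 38.

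Cytochrome P450 families 1 to 3, which metabolise drugs and steroids, had 26 of 38 probes above 0 and a median of 0.087, close to that of sterol synthesis. At an unadjusted p under 0.05, 4 of these probes were higher and 0 lower, against 1.78% and 1.7% of all probes. Cyp2a4, a steroid hydroxylase more abundant in female liver, ran from -0.98 in strain 6 through -0.31 to 1.01 in strain 38 in the high-score group and from -1.41 in strain 5 through -0.78 to 0.017 in strain 20 in the low-score group. Its difference was 0.60 (limma unadjusted p = 0.016), and 0.46 without strain 38. Cyp3a44, the other P450 member named by absolute difference, differed by 0.49, and by 0.71 without strain 38. Among high-score strains Cyp3a44 was lowest in strain 38, at -0.87, and highest in strain 39, at 3.09. The list of male-biased, growth hormone dependent liver genes had 8 of 18 probes above 0 and a median of -0.033. Mup3, a major urinary protein, ran from -1.03 in strain 38 through 0.33 to 0.79 in the high-score group and from 0.15 through 0.82 to 1.75 in strain 1 in the low-score group, a difference of -0.68 (unadjusted p = 0.0065) and of -0.53 without strain 38. A second Mup3 probe differed by -0.22, and probes of Mup genes can share transcripts. The mean level of this male-liver list was -0.93 in strain 38, the lowest of the high-score group; its part in the results was not tested beyond the values without that strain.

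The acute phase list had 5 probes higher and 0 lower at an unadjusted p under 0.05, with 16 of 30 above 0 and a median of 0.051. Of all probes, 1.78% were higher and 1.7% lower at that p, and none was called. These 5, named after their values were seen, were 2 probes of Trf (0.38 and 0.24), Stat3 (0.24), Orm2 (0.23) and Itih3 (0.17), and the other 2 Trf probes differed by 0.15 and 0.062. Without strain 15 the first Trf probe differed by 0.24, with an unadjusted p of 0.061. Serpina3n, the other acute phase member named by absolute difference, differed by -0.31. Antioxidant and NRF2 targets had 17 of 23 above 0 (median 0.034), with Prdx1 at -0.30 and Gsta2 at 0.28, or 0.17 without strain 38. Cytosolic ribosomal proteins had 55 of 78 probes below 0 and a median of -0.054, with 6 lower and 2 higher at an unadjusted p under 0.05, against 1.7% and 1.78% of all probes. Such probes may also read processed pseudogenes of their gene. Rpl39, an every 8th probe, differed by 0.48 and Rplp1 by -0.36. The list of oxidative phosphorylation had 33 of 75 above 0 (median -0.0098), of the circadian clock 9 of 19 (median -0.0054) and of the unfolded protein response and chaperones 9 of 24 (median -0.0082).

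Markers of the cells a liver sample can hold were read the same way. Hepatocyte markers had 6 of 15 probes above 0 (median -0.039), with the urea cycle gene Cps1 at -0.37 and Apob at 0.27, or 0.12 without strain 15. Kupffer cell and macrophage markers had 11 of 18 above 0 (median 0.019), endothelial and stellate cell markers 11 of 21 (median 0.0057) and cholangiocyte markers 5 of 9 (median 0.016). At an unadjusted p under 0.05, 2 Kupffer cell and macrophage probes were higher and 0 lower, against 1.78% and 1.7% of all probes. Cd163 of that list differed by 0.24 (limma unadjusted p = 0.017) and Msr1 by -0.21. In the endothelial and stellate list Fcgr2b differed by -0.54, or by -0.22 without strain 38. Lymphocyte markers had 4 of 18 above 0 and a median of -0.057, with 0 higher and 2 lower at an unadjusted p under 0.05. Within them Ms4a1, the B cell antigen CD20, differed by -0.42 (limma unadjusted p = 0.028) and by -0.30 without strain 38, and Cd2, a T cell adhesion receptor, by -0.22. Adipose markers had 5 of 12 above 0 (median -0.013), exocrine pancreas markers 11 of 26 (median -0.015), erythroid markers 2 of 7 (median -0.052) and skeletal muscle markers 7 of 13 (median 0.0050). Of the exocrine pancreas probes 0 were higher and 2 lower at an unadjusted p under 0.05. Cela2a, an every 8th probe, differed by -0.37 (limma unadjusted p = 0.018) and Cpb1 by -0.34, or by -0.23 without strain 38. Ucp1, the uncoupling protein of brown fat, differed by 0.55 within the adipose list, whose mean level ran from -0.12 to 0.12 in high-score and from -0.18 to 0.098 in low-score strains. Car3, the other member named from that list, differed by -0.27, or by -0.0080 without strain 38.

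**Figure D4:**
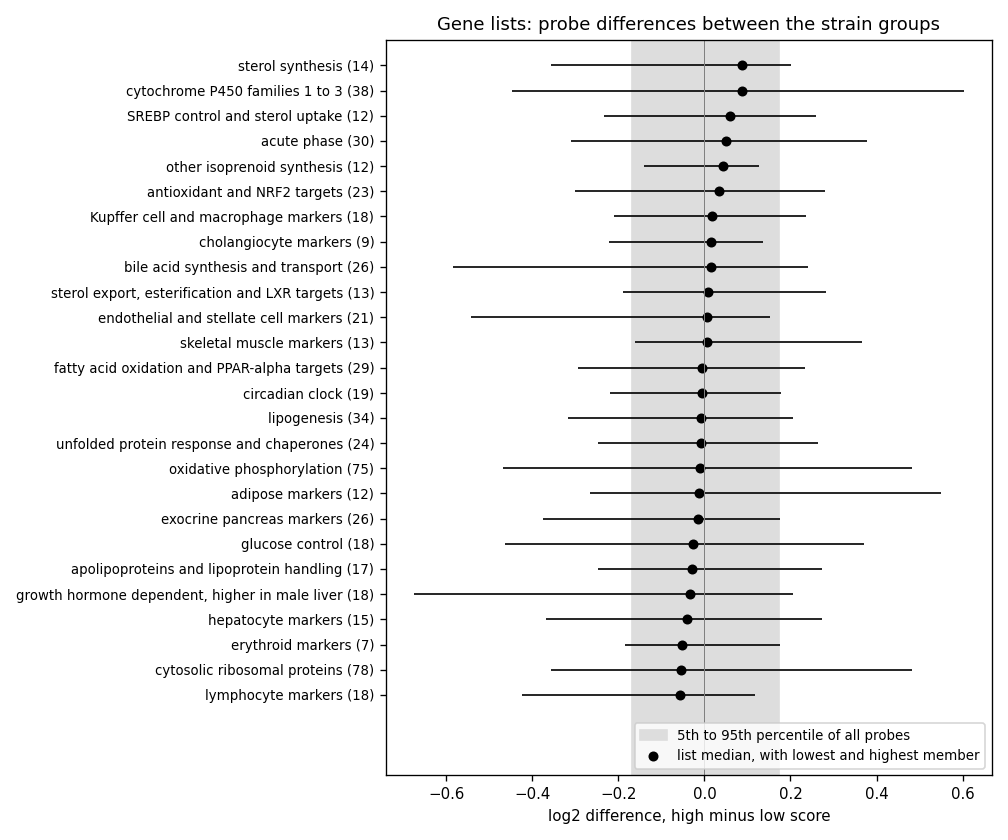
Median difference in log2 ratio of each gene list, high-score minus low-score strains (points, x axis), with lines to the lowest and highest member; probe numbers are in brackets and the grey band is the 5th to 95th percentile of all probes. List medians lie between -0.057 for lymphocyte markers and 0.088 for sterol synthesis, all inside the band of -0.17 to 0.17, which describes single probes and not medians.

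With no call to draw on, the probes named whatever their list are the 8 with the lowest p in each direction among probes with 1 named gene. They include the Cd36 probe already given with fatty acid oxidation. Clone and predicted-gene symbols did not count as named. All had an adjusted p of 0.9996. The lowest unadjusted limma p of all tested probes, 0.00054, belonged to a probe without such a name. On the higher side Plpp3, a lipid phosphate phosphatase, ran from 0.32 in strain 39 through 0.62 to 0.79 in strain 22 in high-score strains and from -0.061 in strain 1 through 0.30 to 0.41 in strain 34 in low-score strains. Its difference was 0.33 ± 0.082 (SE, n = 9 each, limma unadjusted p = 0.00064), and all 9 high-score strains exceeded the low-score median. Anpep, the membrane aminopeptidase N, ran from 0.41 in strain 38 to 0.89 in strain 33 in the high-score group and from -0.0056 in strain 29 to 0.69 in strain 15 in the low-score group, a difference of 0.31. Gne, the key enzyme of sialic acid synthesis, differed by 0.29, Ndufaf8, an assembly factor of complex I, by 0.33, and Atp6v0b, a proton pump subunit, by 0.32. Camk2n1, an inhibitor of CaM kinase II, differed by 0.36, Ubqln1, a ubiquitin-binding shuttle protein, by 0.30 and Lrrc27 by 0.24.

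The lower side held Cd36, the fatty acid translocase, which ran from -0.17 in strain 16 through 0.037 to 0.39 in strain 18 in high-score strains and from 0.14 in strain 1 through 0.34 to 0.51 in strain 5 in low-score strains. The difference was -0.27 ± 0.076 (SE, limma unadjusted p = 0.0021), with 1 of 9 high-score strains above the low-score median. Immunoglobulin kappa light chain genes came up in 2 of the 8 places, Igkc at -0.36 and Igkv4-55 at -0.25, but 2 further probes of Igkv4-55 differed by 0.033 and -0.038. Thg1l, a tRNA-histidine guanylyltransferase, differed by -0.30, Neat1, the noncoding RNA of paraspeckles, by -0.29 and Zdhhc2, a palmitoyltransferase, by -0.26. Izumo3 differed by -0.36 and Lrrc47 by -0.32. Second probes had the opposite sign for Ubqln1, at -0.15, and Zdhhc2, at 0.078. That of Lrrc27 had the same sign as the first but a smaller difference, at 0.073.

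**Figure D5:**
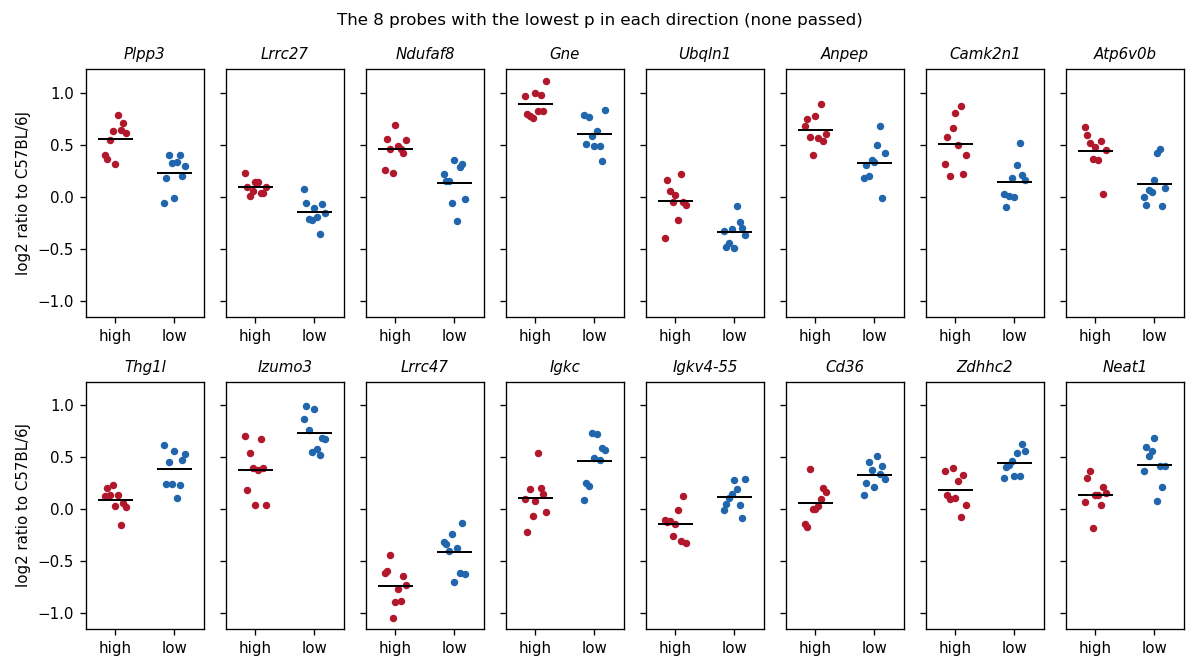
Log2 ratio to the C57BL/6J pool (y axis) in each high-score (left, red) and low-score (right, blue) strain, with horizontal lines at the group means, for the 8 probes with the lowest p in each direction. All 16 show overlapping groups, including Plpp3 (difference 0.33) and Cd36 (difference -0.27), and none passed the adjusted threshold.

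Pearson's r with the score over all 27 strains was compared, as a description, among the probes with 1 named gene. The genes that followed the score most closely were Kcnk4 (0.72), Smc6 (0.65), Rpgrip1 (0.65), Dazap1 (0.63), Akr1c21 (0.63) and Krtap3-1 (0.62). These points share their arrays. The mean of Kcnk4, a potassium channel gene, was 0.14 ± 0.11 in high-score, 0.052 in middle and -0.048 ± 0.11 in low-score strains (SD, n = 9). Its second probe differed by 0.040 between the groups, against 0.19 for the first. Akr1c21, a steroid dehydrogenase, was at 1.08 in strain 27, the strain with the highest score, and at -0.27 in strain 15.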

How the data were processed

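The authors deposited 1 column of values for each of 31 arrays, and the submitters' processing notes name R 2.0.0 and limma for them. These values, as the authors deposited them, are normalized log ratios that were read as log2. For the log base, direction, background correction and normalization steps, the sources used here give nothing. All arrays had been brought to 1 distribution (sorted values differed by at most 0.000256, SD 0.51). Intensities were not used, and precision is limited by how many arrays there are. Of 23040 features, 1275 were empty and 21765 had values on all arrays. The platform annotation gave 1 gene for 16642 of these, several for 134 and none for 4989, and 15964 were matched by gene ID to RefSeq (GRCm38.p6).

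Groups were compared with limma 3.58.1 (lmFit, eBayes, two-sided, Benjamini-Hochberg threshold 0.05 over all probes) in R 4.3.3, with strains as replicates and no covariate. The fit was tested on simulated data with independent normal noise for each probe. Such data leave out variation that probes share on an array, so no conclusion about the real arrays is drawn from them. Probes of Sqle, Fdps and Msmo1 were left out of counts but stayed in the fit and the adjustment. Named probes were those called, or, with under 5 called, the 8 with the lowest p in each direction, every measured member of the sterol synthesis and SREBP control and sterol uptake lists, up to 2 members of other lists by absolute difference where the rule allowed up to 4, and the 6 most correlated with the score. The members and lists were chosen with earlier results of these data known. Alternatives were group size, the genes in the score, the strains kept, place on the array and covariates.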

Additional observations from a re-analysis of the deposited data

Results flagged for a closer look

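Among 94 named probes in the 2 groups, 188 sets of 9 strains, 17 (9.04%) held a strain far from the others by Dixon's criterion. Chance flags about 1 in 20 sets of unselected probes. Many of the named probes were selected for a large difference or a low p, which can favour single extreme strains. The 2 shares therefore cannot be compared. Strain 38 accounted for 6 of the 17, all in the high-score group and all in list members named for their absolute difference: Sult2b1 at 1.944, Mup3 at -1.027, Mup2 at -2.937, Gsta2 at 0.7862, Ms4a1 at -0.9083 and Atp5g2 at 0.8642. Without this strain the difference of Mup2 was -0.077 in place of -0.43, and that of Sult2b1 0.081 in place of 0.28. Other high-score values that stood apart were Atp6v0b at 0.0263 in strain 6, Serpina3n at 0.9112 in strain 18, Apoc3 at 1.396 and Tfrc at 2.044 in strain 22 and Pggt1b at 0.9801 in strain 32. In the low-score group they were Crtc2 at -3.242 in strain 5, Sc5d at -1.159 and Klf1 at 0.2032 in strain 15, Hsd17b7 at 1.506 and Arntl at 1.828 in strain 31, and Ndufv1 at 3.652 in strain 34, which is the upper limit of all deposited values.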

How the results depend on the processing

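Under each of the 16 alternatives run, 0 probes and 0 of the other sterol synthesis members were called by limma, and 343 to 2490 probes had an unadjusted p under 0.05. The lowest counts came where fewer features were tested, 343 of the 10880 probes with the larger SDs and 522 of 15092 with the probes of a gene averaged. The count of 2490 (11.4%, lowest adjusted p 0.12) came with the 4 strains kept in, when 5 low-score strains were shared with the main grouping, and the sterol synthesis median was 0.20 with 6 of 14 members at an unadjusted p under 0.05. The score without Msmo1 gave 1670 (7.67%, lowest adjusted p 0.081). Over all alternatives the sterol synthesis median was 0.052 to 0.20. Among the 94 named probes, 15 changed sign with the score without Msmo1, 11 with the 4 strains kept in and 9 with the score without Fdps. Of those whose own interval had excluded 0, Nr5a2 was at 0.035 and Atf4 at -0.0015 with the score without Fdps, and Cd2 at 0.00074 with the score without Msmo1; the cause was not tested. Leaving out strain 14 was not run, since it is a middle strain, and leaving out strain 15 was chosen after seeing the data. No paired analysis was possible because the strains share no numbering between groups.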

Other observations

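When the score was made from Sqle and Fdps alone, 7 high-score and 7 low-score strains were shared with the grouping by 3 genes, and the leading probes were others. Among probes with 1 named gene other than the 3, Cactin had the lowest p. Its mean was 0.55 ± 0.13 in the high-score and 0.17 ± 0.098 in the low-score strains of that grouping (SD, n = 9 each). The difference was 0.38 (limma adjusted p = 0.081). The adjustment ran over all probes, those of Sqle, Fdps and Msmo1 included, and a probe not listed here may rank ahead of Cactin. Ghr, the growth hormone receptor, followed at 0.34 ± 0.14 in those high-score and -0.12 ± 0.22 in those low-score strains, a difference of 0.46 (limma adjusted p = 0.23). Dmgdh, a mitochondrial enzyme of choline breakdown, differed by 0.57, and Aqp8, a water channel, by 0.44, both with a limma adjusted p of 0.60. None of these passed the threshold, and this grouping too was made from the measured values.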
